A study of Mus musculus with 12 samples.

Results

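Among 12 libraries of tumours grown from mouse oral cancer cells, the 6 from mice given Ctrl-IgG or aCSF1R fell on opposite sides of a limit set on Krt14. This gene encodes the type I keratin of basal keratinocytes. Krt14 was at least 100 FPKM (fragments scaled by transcript length and by library total) in 3 libraries, Ctrl-IgG 3, aCSF1R 1 and aCSF1R 2, called Krt14-high here. It was under 1 FPKM in the other 3, Ctrl-IgG 1, Ctrl-IgG 2 and aCSF1R 3, called Krt14-low. The libraries were chosen by their measured Krt14 level, so that every difference between them is a description without a test. Both treatments stood on both sides, with 1 of 3 Ctrl-IgG libraries and 2 of 3 aCSF1R libraries above the limit. No library of the 6 lay near the limit, since the Krt14-high library closest to it had 164 FPKM and the Krt14-low library closest to it had 0.17 FPKM.

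The study treated tumours grown from cells labelled MTC-Q1, a mouse oral cancer cell line of which the methods name the subline MTCQ1-2 (Q1-2), in C57BL/6 mice. Dosing started at a tumour volume of 100 mm3, and RNA of whole tumour tissue was sequenced. The methods describe injection into the lining of the cheek and injection under the skin, and do not say which was used for these libraries. The 4 groups of 3 libraries each received Ctrl-IgG, aCSF1R, IL-10-Fc or BF10. Ctrl-IgG is labelled as a control isotype Fc, the Fc part of an antibody. aCSF1R is an antibody against CSF1R, the receptor for the macrophage growth factor CSF1. IL-10-Fc is the cytokine interleukin-10 joined to an antibody Fc part, and BF10 is a fusion of interleukin-10 with the aCSF1R antibody. The labels give all groups the same host strain and the same injected line, a single line, and the methods give the mice as 6 to 8 weeks old. Dosing is stated as 6 doses in the treatment label and as 4 in the series design. Nothing in the labels says that the libraries of a group came from separate mice, so the p-values for the antibody contrast measure only the spread between these libraries, which may be technical. In RNA of whole tissue, fewer cells of a type and less RNA per cell cannot be told apart.

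Stratified squamous epithelium, which covers skin and lines the mouth, renews from a basal layer that makes Krt5 and Krt14 and is anchored by hemidesmosomes. Cells leaving that layer switch keratins and build a hardened outer envelope. Epidermis switches to Krt1 and Krt10, while the lining of tongue and cheek switches to Krt4 and Krt13. Skeletal muscle, which makes up much of the tongue and the cheek wall, contracts through sarcomeres of actin and myosin whose heavy chains differ between fast and slow fibres, and creatine kinase (Ckm) buffers the ATP they use.

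The promoters of 4 genes that separated the sides are shown because these genes mark the basal layer (Krt5), the cornified envelope (Lor, loricrin), the thin filament of the sarcomere (Acta1, skeletal alpha-actin) and its energy buffer (Ckm). Each runs 5′ to 3′ on the strand of the gene from 250 bases before to 50 bases after the RefSeq start (build GRCm38.p6), and capitals mark matches on either strand to TATAAA (the TATA box), to CAGCTG (an E-box form bound by the MyoD family), to TGANTCA (the site of AP-1 factors) and to the CArG box of serum response factor.
Krt5, chr15:101712856-101713155, minus strand: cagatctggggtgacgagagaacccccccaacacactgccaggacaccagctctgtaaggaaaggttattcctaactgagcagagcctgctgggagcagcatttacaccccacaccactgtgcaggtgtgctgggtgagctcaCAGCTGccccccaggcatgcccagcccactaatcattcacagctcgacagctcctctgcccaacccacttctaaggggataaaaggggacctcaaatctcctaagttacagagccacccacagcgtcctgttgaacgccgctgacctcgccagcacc
Lor, chr3:92083093-92083392, minus strand: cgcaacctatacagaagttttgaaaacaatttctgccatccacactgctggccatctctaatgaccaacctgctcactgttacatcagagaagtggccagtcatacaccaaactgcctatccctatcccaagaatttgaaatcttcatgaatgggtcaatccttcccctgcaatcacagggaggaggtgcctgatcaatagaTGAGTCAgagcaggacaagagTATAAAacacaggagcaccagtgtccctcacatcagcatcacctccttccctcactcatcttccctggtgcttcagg
Acta1, chr8:123894726-123895025, minus strand: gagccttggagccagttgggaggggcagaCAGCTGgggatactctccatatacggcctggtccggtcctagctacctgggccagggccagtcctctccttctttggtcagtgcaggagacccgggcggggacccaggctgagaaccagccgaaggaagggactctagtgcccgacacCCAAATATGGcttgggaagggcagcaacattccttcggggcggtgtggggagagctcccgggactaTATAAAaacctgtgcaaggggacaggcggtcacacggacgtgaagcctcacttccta
Ckm, chr7:19410844-19411143, plus strand: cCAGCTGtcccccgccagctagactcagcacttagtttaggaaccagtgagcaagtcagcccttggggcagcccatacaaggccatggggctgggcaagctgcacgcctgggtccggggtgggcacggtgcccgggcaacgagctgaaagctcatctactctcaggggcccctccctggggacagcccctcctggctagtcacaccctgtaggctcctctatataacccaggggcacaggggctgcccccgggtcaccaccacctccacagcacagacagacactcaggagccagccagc
The Acta1 window held the TATA box, the E-box form and the CArG box. The Lor window held the TATA box and the AP-1 site. Among exact matches to these motifs, the Krt5 and Ckm windows held the E-box form alone. Near forms of TATAAA were not searched for, so their absence is not shown. The RefSeq start used for Ckm lay 6318 bases from the GENCODE gene start. In Krt5, Lor and Acta1 the starts were at most 24 bases apart.

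Over lists of marker genes, CAGCTG was in the windows of 20 of the 35 skeletal muscle genes with a window (57.1%) and of 8 of the 29 keratinocyte genes with one (27.6%). All 27025 genes with a window held it in 18.3%. The order was the other way for TGANTCA, which was in 9 of 29 keratinocyte windows (31.0%), 4 of 35 muscle windows (11.4%) and 8.97% of all genes with a window. TATAAA was in 11 of 29 keratinocyte windows (37.9%), 8 of 35 muscle windows (22.9%) and 15.7% of all genes, and the CArG box in 1 keratinocyte window, 4 muscle windows (11.4%) and 1.81% of all genes. A match gives letters in a window and is no evidence of binding, and 18 keratinocyte and 12 muscle genes had no window in the reference used.

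Some libraries stood apart or went against their labels. Ctrl-IgG 2 had an FPKM sum of 819001 beside 657090 to 701275 in the other 5, with 7.19% of it from mitochondrial genes beside 3.00% to 3.61%, and 13149 genes of at least 1 FPKM beside 13751 to 14603. Relative depth, read from the smallest steps of the FPKM values, was 1, 0.948 and 1.08 in the Krt14-low libraries and 1.17, 1.18 and 1.16 in the Krt14-high ones, and its part in the differences was not tested. Across genes, Pearson's r between libraries was 0.938 to 0.986 within a side and 0.897 to 0.969 across sides, a description only. The first number in the codes of the sample names, whose meaning is not stated, was 1, 1 and 6 on the Krt14-low side and 5, 3 and 3 on the Krt14-high side, so that whatever it stands for cannot be told apart from the side. The 6 libraries of IL-10-Fc and BF10 differed from these 6 in genes with no tie to epithelium or muscle. H2-Ea, an MHC class II gene that the C57BL/6 haplotype does not express, did not exceed 0.27 FPKM with Ctrl-IgG or aCSF1R and was 553 FPKM or more with IL-10-Fc or BF10, against the labelled strain. Rhox5 was 575 FPKM or more in the former and at most 111 FPKM in the latter, and Xist at most 0.04 FPKM and at least 17.1 FPKM. No difference between these 2 sets of libraries is therefore given as an effect of treatment.

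Values of the 3 Krt14-low libraries are given throughout in the order Ctrl-IgG 1, Ctrl-IgG 2, aCSF1R 3, and those of the Krt14-high libraries in the order Ctrl-IgG 3, aCSF1R 1, aCSF1R 2. Krt14 (chr11:100203162-100207548) was 0, 0.17 and 0.07 FPKM in the Krt14-low libraries and 431, 164 and 414 FPKM in the Krt14-high ones. Krt5 (chr15:101707070-101712898), its type II partner in the basal layer, was 0.04, 0 and 0 FPKM against 138, 56.4 and 101 FPKM. The pair stood in a similar ratio, with Krt5 at 0.32, 0.34 and 0.24 of the Krt14 level in the Krt14-high libraries. Both were lowest in aCSF1R 1 among the Krt14-high libraries, and both were at or near 0 on the other side.

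Of 47 keratinocyte genes in 3 lists (basal layer, cell junctions, cornified layer), 44 were higher in every Krt14-high library than in every Krt14-low library, and none was lower. Among all 15813 genes above the filter (at least 1 FPKM in at least 3 libraries), 2259 (14.3%) were higher without overlap and 1241 (7.85%) were lower without overlap, a background against which the counts for chosen markers are only a description. The list passed the filter with 42 genes, and 245 genes in all passed it through the Krt14-high libraries alone, so such genes had to differ. The median difference over all 47 keratinocyte genes was 3.01 on the log2(FPKM + 1) scale, beside 0.13 over all genes. In 31 of the 47 genes all 3 Krt14-low libraries were under 1 FPKM, and in 8 all 3 were listed at 0.

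**Figure D1:**
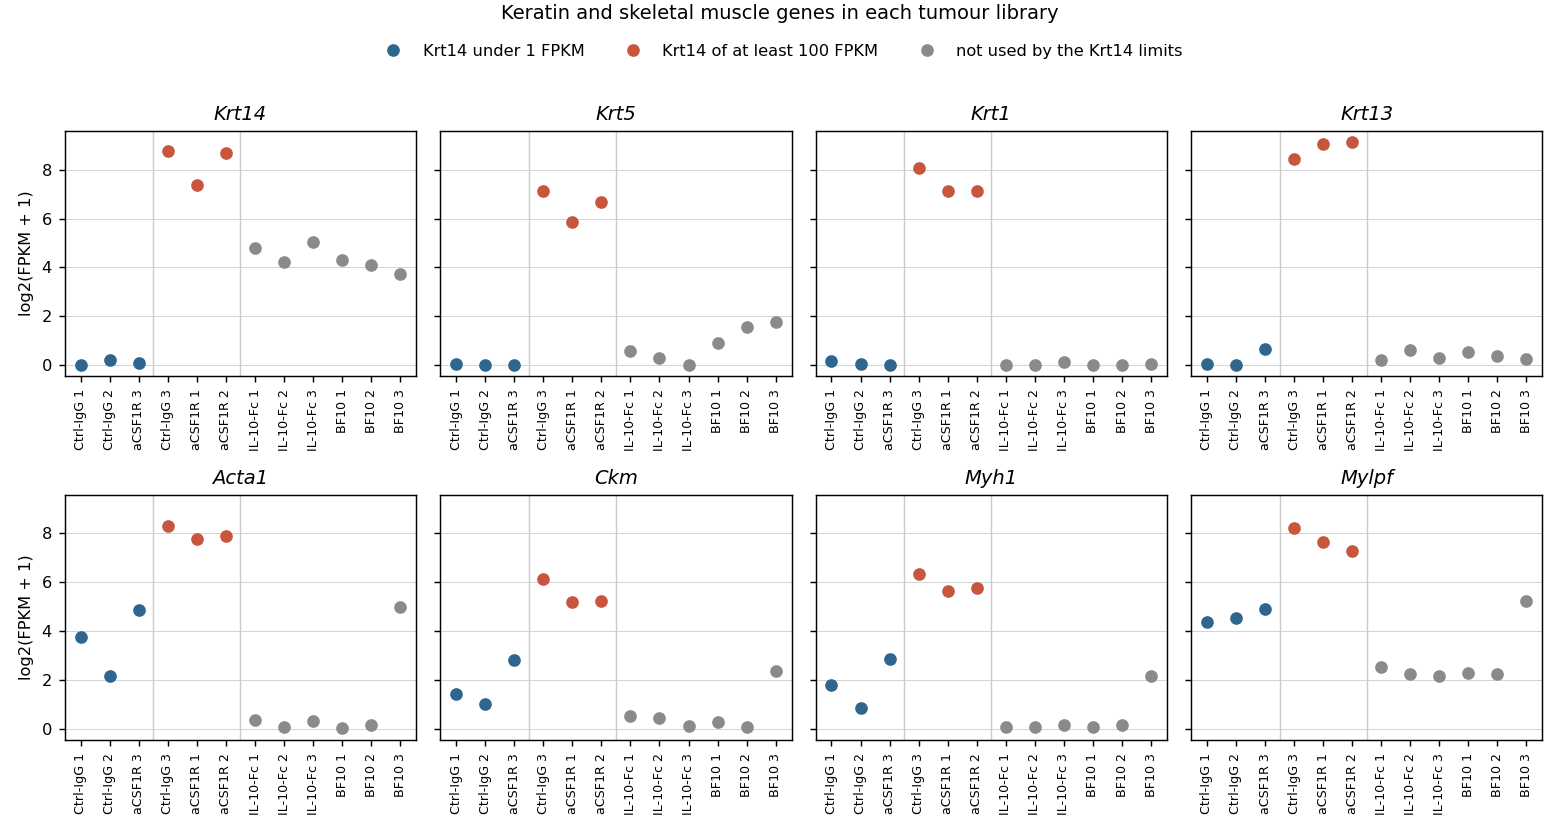
Level of 8 marker genes in the 12 libraries on a log2(FPKM + 1) axis, with 1 point for each library, Krt14-low libraries in blue, Krt14-high libraries in red and those of IL-10-Fc or BF10 in grey. Krt14, Krt5, Acta1 and Ckm are higher in the 3 red libraries than in the 3 blue ones, and Acta1 is also raised in 1 grey library, BF10 3, at 30.5 FPKM.

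Beyond the keratin pair, the regulator and most anchoring proteins of the basal layer were higher on the same side. Trp63, the transcription factor that keeps the basal state of stratified epithelia, was 0.04, 0.04 and 0.31 FPKM against 3.68, 1.86 and 3.12 FPKM. Col17a1, a transmembrane collagen of hemidesmosomes, was 0.12, 0.13 and 0.17 FPKM against 10.96, 5.71 and 11.1 FPKM. Krt15, a keratin of basal cells and of hair follicle stem cells, was listed at 0 in all Krt14-low libraries and was 13.5, 2.58 and 1.10 FPKM in the Krt14-high ones, so it was several times higher in Ctrl-IgG 3 than in the aCSF1R libraries of that side. Integrin chains behaved differently from the keratins. Itga6, the alpha-6 chain that many tumour and endothelial cells also carry, overlapped at 41.8, 33.5 and 24.4 FPKM against 41.2, 28.2 and 34.7 FPKM, while its partner Itgb4 was 2.52, 0.55 and 2.42 FPKM against 5.56, 3.70 and 6.64 FPKM and separated by a small margin. Of the 10 basal genes 9 separated, beside 14.3% of all genes, with a median difference of 1.56 on the log2(FPKM + 1) scale. Itga6 did not separate.

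All 10 genes of epithelial junctions separated, beside 14.3% of all genes, with a median difference of 3.00 on the log2(FPKM + 1) scale. Dsp (desmoplakin), which ties desmosomes to keratin filaments, was 0.03, 0.02 and 0.03 FPKM against 23.5, 11.4 and 21.9 FPKM. Perp, a desmosomal protein and p63 target, was 0.04, 0.16 and 0.19 FPKM against 113, 50.5 and 82.6 FPKM. The desmosomal cadherin Dsg3 was 0, 0.01 and 0.03 FPKM against 7.26, 3.85 and 10.1 FPKM. These 3 genes were near 0 in every Krt14-low library and lowest in aCSF1R 1 among the Krt14-high ones. Jup (plakoglobin), which also serves adherens junctions of other cells, kept 10.3, 4.87 and 10.4 FPKM in the Krt14-low libraries, beside 39.2, 21.5 and 39.4 FPKM. Cdh1 (E-cadherin), the adhesion molecule of epithelial cells in general, was 0.92, 0.37 and 0.88 FPKM against 5.08, 2.88 and 4.62 FPKM, so it stayed under 1 FPKM in the Krt14-low tumours.

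Several genes of the outer layers reached the level of the basal pair. Krt1, the epidermal keratin of cells that have left the basal layer, was 0.12, 0.02 and 0 FPKM against 269, 138 and 139 FPKM. Its partner Krt10 was 2.06, 4.59 and 1.82 FPKM against 355, 174 and 192 FPKM. Lor, the main protein of the cornified envelope, was listed at 0 in all Krt14-low libraries and was 82.7, 72.5 and 77.0 FPKM in the Krt14-high ones. Lor differed little among the Krt14-high libraries, although Krt14 differed between 164 and 431 FPKM there. Krtdap, a secreted protein of differentiating keratinocytes, was 0, 0.34 and 1.02 FPKM against 220.2, 154 and 168 FPKM, and Calm4, a calcium-binding protein of the epidermis, was 0.05, 0.05 and 0 FPKM against 162, 112 and 104 FPKM. Flg (filaggrin), which bundles keratin in the upper layers, was 2.01, 0.95 and 0.39 FPKM against 36.6, 13.6 and 17.1 FPKM. Of 27 cornified-layer genes 25 separated, beside 14.3% of all genes, with a median of 3.21 on the log2(FPKM + 1) scale. The filter was passed by 22 of the 27, and Krt77 and Flg2 overlapped. Ivl (involucrin), an early envelope protein, separated at a level under 1 FPKM, with 0.54, 0.06 and 0.06 FPKM in the Krt14-high libraries. Sbsn (suprabasin) was well above 0 on both sides, at 14.9, 3.45 and 14.7 FPKM against 61.3, 38.9 and 37.0 FPKM.

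Krt13 of the oral lining was the most abundant listed keratin in both Krt14-high aCSF1R libraries. Krt13, a type I keratin of non-cornified epithelium, was 0.03, 0 and 0.59 FPKM against 346, 530.0 and 559.7 FPKM. Its partner Krt4 was 0.02, 0 and 0.40 FPKM against 173, 305 and 250.4 FPKM. Both were highest in the aCSF1R libraries, whereas Krt14, Krt1 and Krt10 were highest in Ctrl-IgG 3. Relative to Krt14 in the same library, Krt13 stood at 0.80 in Ctrl-IgG 3, 3.22 in aCSF1R 1 and 1.35 in aCSF1R 2. The same ratio for Krt4 was 0.40, 1.85 and 0.60, and for Krt1 it was 0.63, 0.84 and 0.33. The 3 libraries thus differed in the mixture of epithelial genes they held as well as in amount, and aCSF1R 1 had the lowest Krt14 with the highest oral keratins per Krt14. With 3 libraries, 1 of them Ctrl-IgG, these ratios have no test.

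The keratins of activated or wounded epithelium were below Krt14 in each Krt14-high library. Krt16 was 3.06, 1.33 and 2.53 FPKM against 308, 93.2 and 292 FPKM, and Krt17 was 0.42, 0.18 and 0.87 FPKM against 76.8, 25.7 and 50.5 FPKM. Krt6a and Krt6b, near-identical copies between which reads can be split wrongly, were at most 0.18 FPKM in the Krt14-low libraries and between 120 and 403 FPKM in the Krt14-high ones. All of these followed Krt14 in being lowest in aCSF1R 1. Of the 9 oral and wound keratins 8 separated, beside 14.3% of all genes, with a median difference of 5.99 on the log2(FPKM + 1) scale. The filter was passed by 6 of the 9. Krt76, a keratin of the hard palate, was at most 0.1 FPKM in all 6 libraries. Together the 9 genes made up 0.222%, 0.176% and 0.292% of the FPKM sum in the Krt14-high libraries and at most 0.001% in the Krt14-low ones.

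Genes of skin appendages differed from those of the surface. Krt71, a keratin of the inner root sheath of hair follicles, was 0, 0 and 0.04 FPKM against 17.0, 2.15 and 1.54 FPKM. Krt25, another inner root sheath keratin, was listed at 0 in all Krt14-low libraries and was 12.8, 1.32 and 1.17 FPKM in the Krt14-high ones. Tchh (trichohyalin), the structural protein of that sheath, was also listed at 0 against 8.01, 0.97 and 0.93 FPKM. All 15 hair follicle genes were highest in Ctrl-IgG 3, and 14 of them separated, beside 14.3% of all genes, but only 2 passed the filter. Krt79, a keratin of the hair canal and sebaceous duct, was 0.02, 0.02 and 0.02 FPKM against 26.4, 6.22 and 2.72 FPKM, and Awat1, a wax synthase of sebaceous glands, was 9.95, 1.32 and 0.33 FPKM in the Krt14-high libraries. The 7 sebaceous genes were also all highest in Ctrl-IgG 3. Of these 5 separated (4 with size factors from medians of ratios), beside 14.3% of all genes, but only 1 passed the filter. Per Krt14, Krt71 was 0.040 in Ctrl-IgG 3, 0.013 in aCSF1R 1 and 0.0037 in aCSF1R 2, so the appendage genes were not a fixed share of the keratinocyte RNA. Of 7 melanocyte genes none separated, of 9 salivary gland genes none did, and the summed melanocyte level was at most 1.67 FPKM in any of the 6 libraries.

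**Figure D2:**
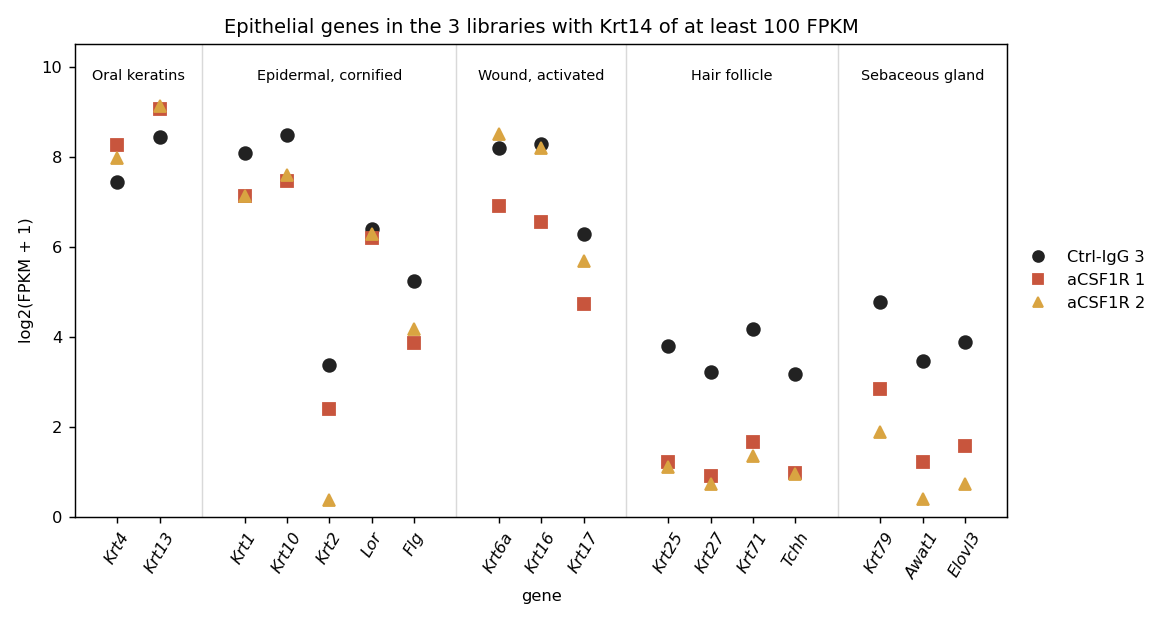
Levels of oral lining, cornified, wound, hair follicle and sebaceous genes in the 3 Krt14-high libraries, with 1 point for each library on a log2(FPKM + 1) axis. Oral keratins are highest in the aCSF1R libraries, while Krt71, Krt25, Tchh, Krt79 and Awat1 are highest in Ctrl-IgG 3, where Krt25 is 12.8 FPKM beside 1.32 and 1.17 FPKM.

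Transcription factors and splicing regulators of epithelium were on the same side as the keratins at lower levels. Zfp750, which drives late keratinocyte differentiation, was 0.01, 0 and 0.01 FPKM against 4.28, 2.45 and 3.75 FPKM. Esrp1, a splicing regulator restricted to epithelial cells, was 0.14, 0.24 and 0.21 FPKM against 7.59, 3.59 and 5.19 FPKM. Of 16 such regulators 15 separated, beside 14.3% of all genes, with a median of 1.13 on the log2(FPKM + 1) scale, and 13 passed the filter. A few were far from 0 on both sides. Pitx1, a homeobox factor of oral and hindlimb tissue, was 9.76, 5.89 and 10.7 FPKM against 14.1, 14.1 and 15.2 FPKM. Sox2, a factor of stratified and stem cell epithelia, was 9.80, 6.94 and 9.89 FPKM against 10.7, 11.3 and 11.2 FPKM, and Pax9, an oral epithelial factor, overlapped at 4.94, 1.40 and 4.26 FPKM against 4.21, 5.35 and 4.81 FPKM. RNA of these 3 factors was thus present in tumours with Krt14 and Krt5 near 0.

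Keratins of simple epithelium were near 0 on both sides. Krt8 was at most 0.28 FPKM and Krt18 at most 0.09 FPKM in all 6 libraries, while tumours given IL-10-Fc or BF10 had 169 to 618 FPKM of Krt8 and 294 to 614 FPKM of Krt18. The cells of every sample are labelled oral cancer, but in the Krt14-low tumours no listed keratin exceeded 6.54 FPKM, the level of Krt80 in Ctrl-IgG 1. Among 8 genes of simple epithelium 3 separated (37.5%), beside 14.3% of all genes. Epcam, an adhesion molecule of many carcinomas, was 0.38, 0.21 and 0.40 FPKM against 3.26, 0.97 and 1.19 FPKM, and Cldn4, a tight junction protein, was 0.07, 0 and 0.07 FPKM against 3.22, 1.55 and 3.06 FPKM.

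RNA of tumour and mesenchymal genes differed little between the sides. Rhox5, a homeobox gene often switched on in mouse cell lines, was 688, 791 and 691 FPKM against 597, 684 and 575 FPKM. Vim (vimentin), the intermediate filament of mesenchymal cells, was 1363, 910.3 and 1074 FPKM against 1135, 941 and 889 FPKM, and Twist1, a mesenchymal transcription factor, was 22.8, 12.2 and 22.6 FPKM against 20.6, 23.3 and 22.3 FPKM. Of 7 tumour transcripts, which were taken from earlier results of these libraries and are no independent evidence, none was higher without overlap and 1 was lower. That gene was Rhox5, whose sides were close to each other, and it overlapped with FPKM rescaled to TPM. Of 11 mesenchymal genes 2 separated upwards (18.2%), beside 14.3% of all genes. Their list median was 0.12 on the log2(FPKM + 1) scale, the same as the median of all genes within 0.01. Mki67, a marker of dividing cells, was 31.1, 74.9 and 32.4 FPKM against 27.6, 27.8 and 26.8 FPKM, and it was 1 of 5 proliferation genes of 14 that were lower without overlap in the Krt14-high libraries. These 5 were 35.7% of the list, beside 7.85% of all genes. The count of lower genes in the list was 3, with 1 gene higher, after rescaling to TPM and 6 with size factors.

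Skeletal muscle RNA was on the same side as keratinocyte RNA. Of 47 genes of sarcomere, structure, energy and calcium handling 44 were higher in every Krt14-high library than in every Krt14-low one. That share was 93.6%, beside 14.3% of all genes. The median difference was 2.04 on the log2(FPKM + 1) scale, and 44 of the 47 passed the filter. In at least 1 Krt14-low library, 31 of the 47 muscle genes had at least 1 FPKM, beside 16 of the 47 keratinocyte genes. The 47 muscle genes made up 0.0180%, 0.0108% and 0.0288% of the FPKM sum in the Krt14-low libraries. In the Krt14-high ones their share was 0.273%, 0.180% and 0.186%. The corresponding shares of the 47 keratinocyte genes were 0.0140%, 0.0071% and 0.0115% and 0.383%, 0.210% and 0.307%.

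All 12 genes of the fast sarcomere separated, beside 14.3% of all genes, with a median of 3.30 on the log2(FPKM + 1) scale. Acta1 was 12.7, 3.54 and 28.6 FPKM against 313, 215 and 238 FPKM. Myh1, the myosin heavy chain of fast IIx fibres, was 2.51, 0.81 and 6.19 FPKM against 80.0, 49.5 and 52.8 FPKM. Myh2, that of fast IIa fibres, was 2.33, 0.24 and 2.96 FPKM against 16.8, 17.0 and 22.5 FPKM. Myh4, that of the fastest IIb fibres, was 0.10, 0.12 and 0.06 FPKM against 12.5, 4.72 and 2.00 FPKM. The lowest Krt14-high value of Acta1 was 7.53 times the highest Krt14-low value, and aCSF1R 3 was the highest of the Krt14-low libraries for Acta1, Myh1 and Myh2. Mylpf, the regulatory light chain of fast myosin, was 19.9, 22.0 and 28.9 FPKM against 296, 200.3 and 156 FPKM, and Tnnt3, fast troponin T, was 5.66, 2.79 and 11.4 FPKM against 152, 87.2 and 76.0 FPKM. The myosin heavy chain genes lie in a cluster of similar copies, so their values are less certain than those of the other sarcomere genes.

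Myosin heavy chain RNA was mostly of the fast types. Of the summed FPKM of Myh1, Myh2, Myh4 and Myh7, Myh1 made up 72.8%, 69.1% and 68.0% in the Krt14-high libraries and 49.3%, 60.4% and 62.5% in the Krt14-low ones. Myh7, the heavy chain of slow fibres, was 0.15, 0.17 and 0.70 FPKM against 0.66, 0.42 and 0.38 FPKM and overlapped. Myl2, the slow and cardiac regulatory light chain, was 2.10, 2.94 and 2.33 FPKM against 1.63, 2.12 and 1.61 FPKM and overlapped too, and Myl3 was at most 0.04 FPKM. Of the 9 genes listed for slow fibres 6 separated, all upwards, beside 14.3% of all genes, and 7 of the 9 passed the filter. Mybpc1, a slow myosin-binding protein also made by fast fibres, was 3.01, 1.85 and 3.17 FPKM against 36.9, 23.5 and 26.5 FPKM. The slow troponin genes Tnnt1, Tnni1 and Tnnc1 also separated. Tnnt1 was 4.77, 1.88 and 4.12 FPKM against 11.5, 7.96 and 6.49 FPKM. Tnni1 was 1.01, 2.05 and 1.62 FPKM against 3.82, 3.96 and 4.01 FPKM. RNA of slow-fibre genes was thus higher on the Krt14-high side too, except for Myh7, Myl2 and Myl3. Relative to Myh1, Myh2 was 0.21 in Ctrl-IgG 3, 0.34 in aCSF1R 1 and 0.43 in aCSF1R 2, and Myh4 was 0.16, 0.095 and 0.038. The Krt14-high library given Ctrl-IgG thus had relatively more of the IIb myosin and less of the IIa myosin than the aCSF1R libraries of that side.

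Structural genes common to all fibres separated in 10 of 10, beside 14.3% of all genes. Des (desmin), the intermediate filament of muscle, was 4.81, 1.22 and 7.77 FPKM against 73.7, 47.4 and 63.3 FPKM, and Neb (nebulin), which lines the thin filament, was 1.58, 2.25 and 3.48 FPKM against 36.4, 21.7 and 31.2 FPKM. Genes of energy use and calcium handling separated in 16 of 16, beside 14.3% of all genes. Ckm was 1.72, 1.01 and 6.07 FPKM against 68.8, 35.9 and 37.0 FPKM. Mb (myoglobin), the oxygen store of muscle, was 4.32, 1.91 and 6.52 FPKM against 65.4, 45.2 and 48.2 FPKM. Atp2a1, the calcium pump of fast fibres, was 1.44, 1.10 and 3.67 FPKM against 68.6, 29.6 and 31.4 FPKM. In all 3 of these, Ctrl-IgG 3 was the highest library, as it was for 38 of the 47 muscle genes, and aCSF1R 3 was the highest of the Krt14-low libraries, as for 36 of the 47.

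Of 10 genes of muscle formation and regulation 9 separated, beside 14.3% of all genes, but only 2 passed the filter. Myog, a factor that drives myoblast differentiation, was 0.09, 0.12 and 0.49 FPKM against 4.22, 2.86 and 4.58 FPKM, and Myf6, the family member most abundant in mature fibres, was 0.14, 0.07 and 0.52 FPKM against 7.71, 3.30 and 3.60 FPKM. Myod1 was at most 0.24 FPKM and Pax7, the marker of muscle stem cells, at most 0.04 FPKM, so the factors of early muscle cells were near 0 on both sides. Myh3, the embryonic myosin, was 0.14, 0.14 and 0.25 FPKM against 0.87, 0.93 and 1.44 FPKM.

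In the libraries that the Krt14 limit did not use, all had Krt14 RNA, and Acta1 was near 0 in all but BF10 3. With IL-10-Fc or BF10, Krt14 was between 12.2 and 31.7 FPKM, while Krt5 was at most 2.38 FPKM. The 9 oral and wound keratins summed to 4.17 FPKM in BF10 3 and to 0.91 to 1.92 FPKM in the rest of the 6. The cornified list level (mean log2(FPKM + 1)) was also highest in BF10 3, at 0.687 beside 0.424 to 0.662. Levels of the basal and junction lists were not highest there. Acta1 was 0.30, 0.05 and 0.26 FPKM in the IL-10-Fc libraries and 0.03, 0.11 and 30.5 FPKM in the BF10 libraries. BF10 3 had the highest muscle list level (mean log2(FPKM + 1) over the 47 genes) of the 6. It was 1.86, just above the 1.09 to 1.77 of the Krt14-low libraries and below the 3.50 to 3.95 of the Krt14-high ones. In BF10 3, 30 of the 47 genes had at least 1 FPKM, beside 6 to 8 in the rest of the 6. By share of the FPKM sum the muscle genes made up 0.0440% in BF10 3. That share was 0.0244% in BF10 2 and 0.0243% in IL-10-Fc 3, within the range of the Krt14-low libraries. In BF10 3 Ckm was 4.11 FPKM, Myh1 3.48 FPKM and Myh2 4.24 FPKM, so Myh2 was above Myh1 there, unlike in the Krt14-high libraries. BF10 3 also stood apart from the rest of the 6 in genes with no tie to muscle. Rhox5 was 111 FPKM there beside at most 20.6 FPKM, and Eif2s3y was 3.29 FPKM beside at most 0.05 FPKM. With Ctrl-IgG or aCSF1R, Eif2s3y was 4.23 to 11.3 FPKM. Whether this is tied to the muscle RNA of BF10 3 was not tested.

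**Figure D3:**
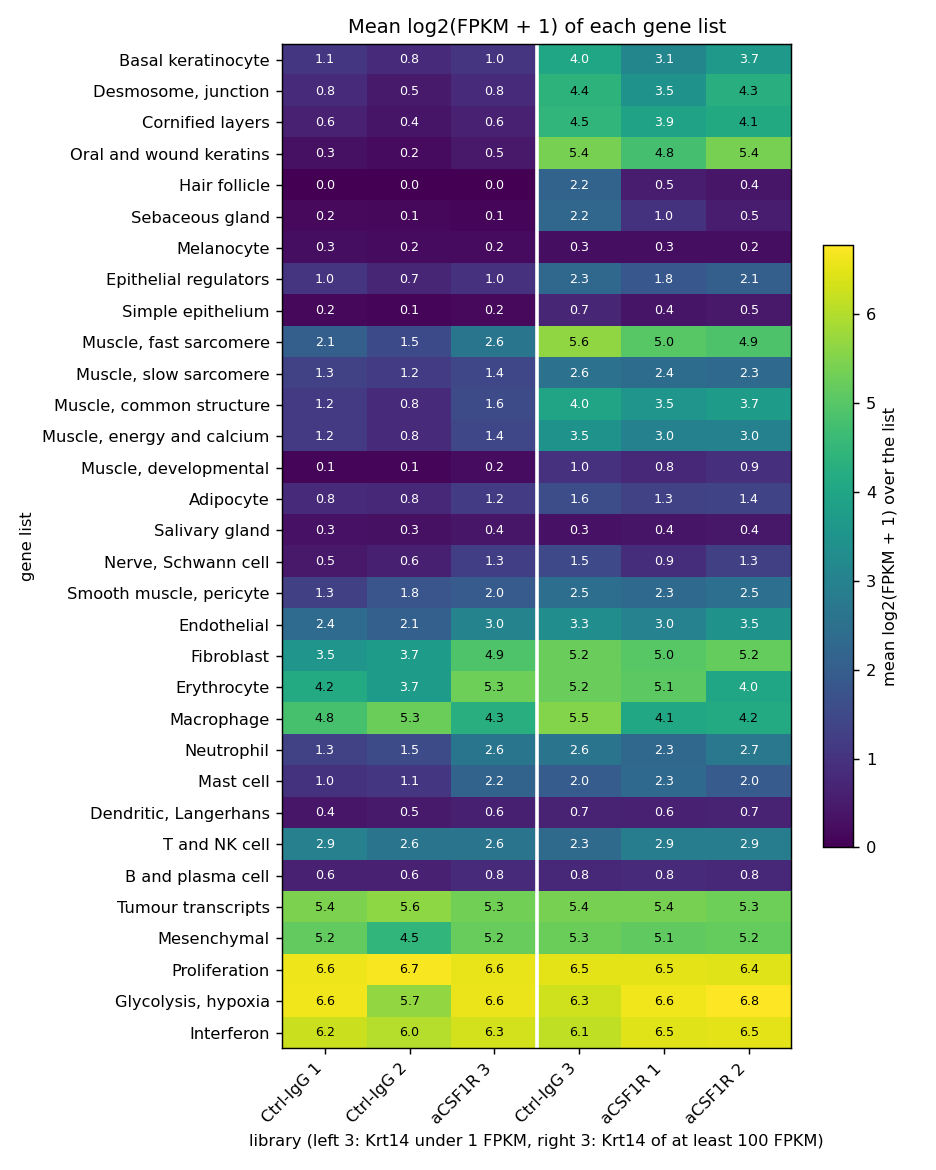
Mean log2(FPKM + 1) of each marker list in the 6 Ctrl-IgG and aCSF1R libraries, Krt14-low libraries on the left and Krt14-high on the right, with brighter cells for higher levels and the value printed in each. Keratinocyte, oral and muscle lists are brighter on the right, while the macrophage, T and NK cell and mesenchymal lists overlap between the sides and the proliferation list is slightly lower on the right.

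Genes of other cell types were examined in the same way. Of 11 fibroblast genes 6 separated, with a median difference of 0.92 on the log2(FPKM + 1) scale. Col1a1 (type I collagen) was 14.1, 9.84 and 66.6 FPKM against 91.6, 83.3 and 99.5 FPKM, so aCSF1R 3 was much closer to the Krt14-high libraries than the Ctrl-IgG libraries on its side were. Postn, a matrix protein of activated fibroblasts, was 8.25, 61.6 and 57.0 FPKM against 148, 121 and 112 FPKM. Of 7 smooth muscle and pericyte genes 4 separated, among them Tagln, an actin-binding protein of smooth muscle, at 2.67, 12.2 and 17.2 FPKM against 27.1, 25.6 and 26.5 FPKM. Of 11 endothelial genes 3 separated and of 11 adipocyte genes 5 did, the latter led by Car3, a carbonic anhydrase that muscle also makes, at 1.38, 0.69 and 6.86 FPKM against 13.8, 13.3 and 16.9 FPKM. Of 8 nerve and Schwann cell genes and of 5 erythrocyte genes none separated. The shares higher were 54.5% (fibroblast), 57.1% (smooth muscle and pericyte), 27.3% (endothelial) and 45.5% (adipocyte), beside 14.3% of all genes. Within treatment the fibroblast median was 1.77 among the Ctrl-IgG libraries and 0.37 among the aCSF1R libraries, so the sides were further apart among the Ctrl-IgG libraries, a difference that was not tested.

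Immune markers overlapped in nearly all cases. Of 10 macrophage genes, 9 T and NK cell genes, 8 B cell genes and 8 mast cell genes none separated, with a macrophage median of −0.04 on the log2(FPKM + 1) scale. That median mixes the side with the treatment, since the sides held unequal numbers of aCSF1R libraries. Within treatment the macrophage median was 0.59 among the Ctrl-IgG libraries and −0.09 among the aCSF1R libraries, a difference that was not tested. Of 9 neutrophil genes 1 did, and of 8 dendritic and Langerhans cell genes 2 did. These 2 were the chemokine Ccl22, at most 1.00 FPKM, and Cd207 (langerin), which marks the dendritic cells of epidermis, at most 0.07 FPKM in the 6 libraries. The neutrophil gene was S100a8, a calcium-binding protein made by neutrophils and by activated keratinocytes, at 16.2, 23.9 and 82.2 FPKM against 154, 93.0 and 165 FPKM. Of 13 interferon response genes 1 was higher and 1 lower. The lists of glycolysis and hypoxia genes (13) and of drug target genes (7) had none on either side. Except for the dendritic cell list, each of these shares was below the background of 14.3% higher and 7.85% lower over all genes.

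Outside the lists, the 10 genes with the widest margin upwards were Fam25c, Sprr2a2, Mt4, Serpinb3a, Rptn, Serpinb12, Calml3, Ly6d, Crct1 and Lce3f. Mt4, the metallothionein of stratified epithelia, was listed at 0 in all Krt14-low libraries and was 51.8, 60.3 and 47.3 FPKM in the Krt14-high ones. Rptn (repetin), a filaggrin relative of the cornified layer and tongue, was likewise at 0 against 46.6, 43.5 and 49.9 FPKM. Sprr2a2 is 1 of a group of near-identical copies, and its value is uncertain. The margins, the gap between the lowest Krt14-high and the highest Krt14-low value, were 4.06 to 6.09 on the log2(FPKM + 1) scale.

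The 10 genes with the widest margin downwards were Bbs2, Cav1, Hilpda, Klrg1, Sec61g, Ccl12, Ccr2, Alg14, Gzmg and Gzmf, at margins of 0.30 to 0.58. Cav1 (caveolin-1), the coat protein of membrane caveolae, was 101, 96.2 and 98.4 FPKM in the Krt14-low libraries and 67.4, 72.1 and 66.2 FPKM in the Krt14-high ones. Ccr2, the receptor that draws monocytes into tissue, was 13.7, 24.3 and 9.92 FPKM against 7.56, 6.64 and 6.82 FPKM, and its ligand Ccl12 was 32.9, 47.0 and 31.2 FPKM against 23.8, 11.8 and 12.2 FPKM. Gzmg, a granzyme of activated killer cells, was 353, 353 and 358 FPKM against 102, 275 and 283 FPKM. Ccr2, Ccl12 and Gzmg are genes of immune cells, with values lower in the Krt14-high libraries and far from 0 in all.

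Each side held both treatments, so the same difference could be read within a treatment. Among the Ctrl-IgG libraries (1 Krt14-high against 2 Krt14-low) the keratinocyte median was 3.34, and among the aCSF1R libraries (2 against 1) it was 2.92, on the log2(FPKM + 1) scale. The corresponding muscle medians were 2.62 and 1.62. The direction of both lists was thus the same in either treatment, and muscle differed less among the aCSF1R libraries, where the Krt14-low library aCSF1R 3 held the most muscle RNA of its side. At a difference of at least 1 on that scale in both treatments, 409 of 15813 genes (2.59%) were higher in the Krt14-high libraries and 27 (0.171%) were lower.

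**Figure D4:**
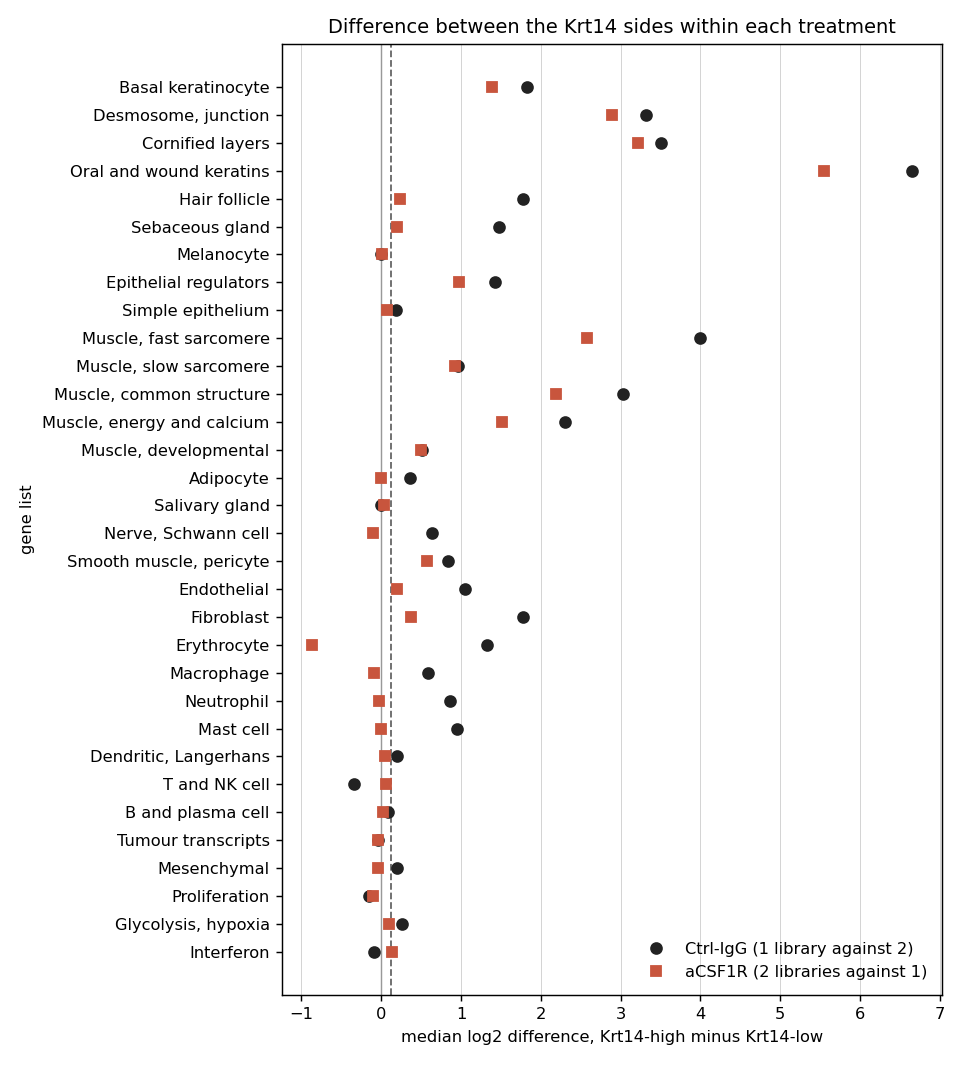
Median difference of each list between Krt14-high and Krt14-low libraries on the log2(FPKM + 1) scale, computed within the Ctrl-IgG libraries (circles, 1 against 2) and within the aCSF1R libraries (squares, 2 against 1), with a dashed line at the median of all genes in the 6 libraries, 0.13. Keratinocyte and muscle lists lie to the right of the line in both treatments, among them the cornified layers at 3.51 and 3.22 and the fast sarcomere at 4.00 and 2.58.

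The counts over all genes depended on scaling more than the lists did. With FPKM rescaled to TPM (a common total per library) 3076 genes were higher without overlap and 752 lower, and with size factors from medians of ratios 1589 were higher and 2242 lower, so the split of 2259 against 1241 turned round. The median of all genes moved from 0.13 to 0.24 with TPM and to −0.01 with size factors. Under both, 44 of 47 keratinocyte genes and 44 of 47 muscle genes were higher without overlap. Without Ctrl-IgG 2 the keratinocyte and muscle counts were 44 of 47 each, and the median of all genes was 0.01.

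The treatments were compared with limma, since the Krt14 limit did not use treatment. No gene of 15813 was called (0%) between the aCSF1R and the Ctrl-IgG libraries at a Benjamini-Hochberg adjusted p under 0.05 and a change of at least 1.5 times, and the smallest adjusted p from limma was 0.404. At an unadjusted p under 0.05 limma gave 437 genes (2.76%), of which 246 were higher in aCSF1R. With the side of the Krt14 limit as a term in the 6 libraries, limma again called no gene (0%), at a smallest adjusted p of 0.206, and 544 genes (3.44%) had an unadjusted p under 0.05. The spread in the fit without that term also came from the 6 libraries of IL-10-Fc and BF10, and a fit without them called 0 genes too. Without overlap, 955 genes (6.04%) were lower in all aCSF1R libraries than in all Ctrl-IgG libraries and 1403 (8.87%) were higher.

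Keratinocyte and muscle genes carried large SEs in this contrast. The fitted aCSF1R minus Ctrl-IgG difference of Krt14 was 2.40 on the log2(FPKM + 1) scale with an SE of 2.40 (limma, adjusted p = 0.958), and with the side as a term it was −0.37 with an SE of 0.42 (adjusted p = 0.945). Acta1 gave 2.10 with an SE of 1.61, and 0.72 with an SE of 0.68 with the side as a term. The median over the 42 keratinocyte genes that passed the filter was 0.91 with a median SE of 0.94, and −0.09 with a median SE of 0.30 once the side was a term, while the median SE of all genes was 0.35 and 0.25. The median over 44 muscle genes was 0.77 with a median SE of 0.70, and 0.06 with a median SE of 0.29. Each library moved these medians when left out. The keratinocyte median was 2.00 without Ctrl-IgG 3 and 1.88 without aCSF1R 3, and 0.311 without aCSF1R 2, 0.380 without Ctrl-IgG 2, 0.493 without Ctrl-IgG 1 and 0.639 without aCSF1R 1. The muscle median ranged from 0.274 without Ctrl-IgG 2 to 1.54 without Ctrl-IgG 3. The Krt14-high side held 2 aCSF1R libraries and 1 Ctrl-IgG library, so the antibody contrast and the side were partly mixed in the fit without that term. Krt13 was 3.46 with an SE of 2.42, and 0.65 with an SE of 0.16 with the side as a term (adjusted p = 0.945 from limma), with aCSF1R libraries above the Ctrl-IgG ones on each side.

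Macrophage genes had a median SE of 0.38, and their median moved little with the side as a term. In the order Ctrl-IgG 1, 2, 3 and aCSF1R 1, 2, 3, C1qa, a chain of the complement protein C1q made by tissue macrophages, was 120.5, 144 and 231 FPKM against 65.0, 65.2 and 55.4 FPKM. The fitted difference was −1.35 with an SE of 0.25, and −1.52 with the side as a term (limma, adjusted p = 0.552 and 0.945). C1qb was 116, 166 and 226 FPKM against 67.4, 71.9 and 61.5 FPKM, at −1.28. Every aCSF1R library was below every Ctrl-IgG library for both genes, on either side of the Krt14 limit. Of 10 macrophage genes 6 were lower in this way (Adgre1, C1qa, C1qb, C1qc, Fcgr1 and Ms4a7), beside 6.04% of all genes, and none passed the adjusted threshold. The list median was −1.15, and −1.07 with the side as a term. Csf1r, the antibody's target, was 8.56, 7.33 and 22.1 FPKM against 6.91, 8.14 and 7.42 FPKM, so that only Ctrl-IgG 3 was above the aCSF1R libraries by more than their spread, at a fitted difference of −0.53 with an SE of 0.69, and of −0.07 without Ctrl-IgG 3. Of 5 genes that the study itself names for this antibody (its Clec4a was taken as Clec4a2), which are no independent evidence, 4 were lower without overlap. The median over the 4 that passed the filter was −1.64.

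**Figure D5:**
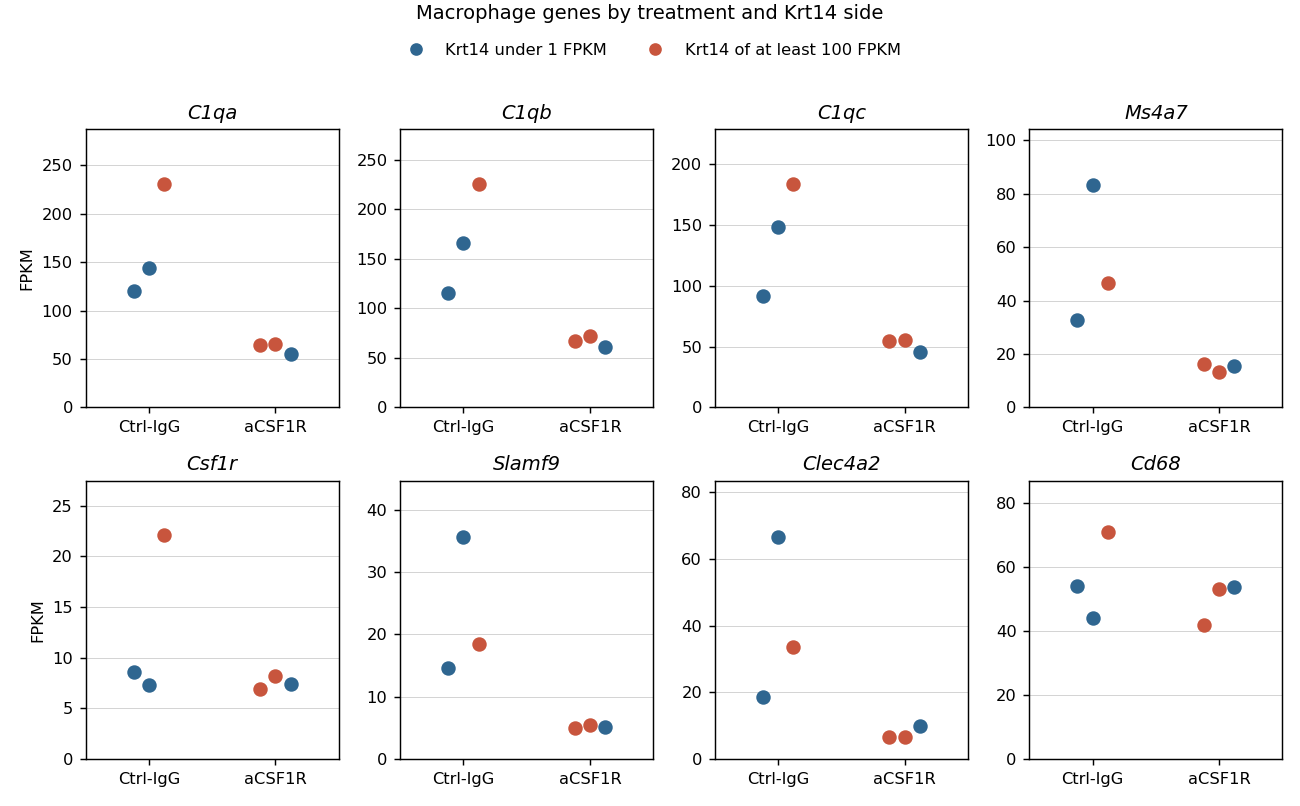
FPKM of 8 genes of macrophages in the 3 Ctrl-IgG and the 3 aCSF1R libraries, with 1 point for each library, coloured by side of the Krt14 limit. For C1qa the aCSF1R points lie at 55.4 to 65.2 FPKM and the Ctrl-IgG points at 120 to 231 FPKM, with points of both sides in each group, and Csf1r overlaps.

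The genes higher in aCSF1R with the smallest p in limma were Apela, Hcar2 and Aspg, all under 20 FPKM. Apela, a peptide hormone ligand of the apelin receptor, was 3.06, 3.91 and 1.59 FPKM against 10.9, 9.46 and 13.9 FPKM, at a difference of 1.72 with an SE of 0.29 (limma, adjusted p = 0.404). Hcar2, the receptor for niacin and ketone bodies, was 2.30, 1.05 and 4.97 FPKM against 12.2, 17.2 and 12.6 FPKM, at 2.11 with an SE of 0.36 (limma, adjusted p = 0.404). Among genes lower in aCSF1R, S100a3, a calcium-binding protein abundant in hair cuticle, was 35.8, 35.0 and 38.4 FPKM against 14.9, 15.5 and 14.6 FPKM, at −1.22. S100a3 did not follow the hair follicle genes, since its 3 Ctrl-IgG values were close to each other while those genes were at or near 0 in Ctrl-IgG 1 and Ctrl-IgG 2.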

How the data were processed

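RNA of whole tumour tissue was sequenced by the authors on an Illumina NextSeq 550 from stranded TruSeq mRNA libraries, in 12 samples of 4 treatment groups. The submitters' processing notes name STAR 2.7.5a, RSEM 1.3.3 and DESeq2 1.30.0 and the build GRCm38. The authors deposited 1 table of FPKM values for 55401 genes, rounded to 2 decimals, in which each library has its own sum. They also deposited 4 tables of their own DESeq2 comparisons (log2 fold change, standard error, statistic, p-value and adjusted p), which were not used here. FPKM values are not counts, so no count model was fitted, and the depth of the libraries is unknown except in relation to each other, from the smallest steps between values.

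Gene positions came from GENCODE M21 (GRCm38), which held 55141 identifiers (99.5%), and promoter windows from RefSeq (GRCm38.p6). Groups came from the treatment label of each sample, and replicate numbers were given in sample order. Identical values were found in 0 pairs of libraries. The 15813 genes that reached 1 FPKM in 3 or more libraries were transformed to log2(FPKM + 1), a scale that understates differences of low genes. The sides of the Krt14 limit were described by the value in each library, the difference of mean log2 values, and whether the sides overlapped. aCSF1R and Ctrl-IgG were compared with limma 3.58.1 in R 4.3.3 (two-sided, trend, all 12 libraries in 1 fit, Benjamini-Hochberg adjustment over all genes), tested on simulated data first.

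The libraries, the 34 marker lists (349 genes, all matched) and the rules were chosen with earlier results of these data known. Genes outside the lists were named by a rule: 10 in each direction with the widest gap between sides among genes of at least 5 FPKM in all 3 higher libraries, and for treatment 3 in each direction with the smallest p among genes whose higher group averaged 5 FPKM or more, leaving out predicted genes, pseudogenes and receptor segments. Symbols held by more than 1 identifier in the lists (Aldoa, Dpep2) used the lowest identifier. Alternatives were a pseudocount of 0.1, no filter, a mean of at least 5 FPKM, TPM, size factors from medians of ratios, the 6 libraries alone, the side as a term, values within a treatment, and leaving out each library. Some listed genes are counted but not reported by name here.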

Additional observations from a re-analysis of the deposited data

How the results depend on the processing

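No paired analysis was possible because replicates were numbered in sample order, and the codes in the sample names share a second number between Ctrl-IgG and aCSF1R only at 1. The count of genes called by limma for aCSF1R against Ctrl-IgG was 0 under every alternative run. Genes at an unadjusted p under 0.05, 437 as reported, numbered 1698 without a filter and 205 with a mean of at least 5 FPKM, 674 in the 6 libraries alone, and between 218 (without aCSF1R 2) and 1048 (without Ctrl-IgG 3) with 1 library left out. Genes higher without overlap in the Krt14-high libraries, 2259 as reported, numbered 3781 without a filter, 1096 with a mean of at least 5 FPKM, 5831 within Ctrl-IgG and 6600 within aCSF1R, and 2489 (without Ctrl-IgG 2) to 4089 (without Ctrl-IgG 1) with 1 library left out. Genes lower without overlap, 1241 as reported, numbered 752 with TPM, 2242 with size factors, 3799 within Ctrl-IgG and 5140 within aCSF1R, and 1562 (without aCSF1R 2) to 2178 (without aCSF1R 3) with 1 library left out. With fewer libraries on a side, more genes separate by construction.

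The keratinocyte median of 3.01 was 5.36 with a pseudocount of 0.1, 4.37 with a mean of at least 5 FPKM, 3.48 with TPM, 3.34 within Ctrl-IgG and 2.88 to 3.24 with 1 library left out. The muscle median of 2.04 was 3.20 with a pseudocount of 0.1, 3.55 with a mean of at least 5 FPKM, 2.62 within Ctrl-IgG, 1.62 within aCSF1R and 1.90 to 2.30 with 1 library left out. Krt14 and Krt5 treatment estimates took the opposite sign with the side as a term, and that of Cd68 did without Ctrl-IgG 3 (0.02). The cause of these changes was not tested. No difference between the sides has a replicate test, and the number of libraries limits every comparison.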
